A study of Mus musculus with 24 samples.

Results

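When doxycycline (DOX) was taken off βTC3 cells that carry a DOX-inducible miR-137 plasmid, the transcript that holds the Mir137 locus dropped to slightly below its level in uninduced cells, and 2185 genes rose and 2201 fell, most of them by small amounts. βTC3 is a mouse insulinoma line, made from pancreatic beta cell tumours of the Rip-Tag2 model, in which the insulin promoter drives the SV40 T antigen. The comparison is of 2 groups of the miR-137 line, whose plasmid the labels call PB-31 miR-137. In 1 group (7 d DOX) cells received DOX at 2 µg/ml for 7 d. In the other (withdrawn) they received the same dose for 7 d and then plain medium for a further 7 d. Members were chosen by these sample labels, and they are 6 libraries, 3 in each group, of the 24 in the series. Beside them stands the same line kept for 7 d without DOX (no DOX). A line with the empty plasmid PB-31 (control line) is given without and with 7 d of DOX. Another line has a plasmid that carries the miR-23b cluster (the miR-23b, miR-27b and miR-24 hairpins). It is given without DOX, on 7 d DOX and withdrawn. Each of those groups also holds 3 libraries. The sources used here do not state whether a line is a clone or a pool, or how the plasmid's control by DOX was built.

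The withdrawn cells differed from the 7 d DOX cells in 3 respects at once. They no longer had the inducer of miR-137, they no longer had DOX itself, and they had been in culture for 14 d in place of 7 d. Loss of miR-137, loss of DOX and time in culture cannot be told apart in this comparison alone, because no control culture was withdrawn. The control line's response to DOX and the withdrawal of the miR-23b line are given beside the results where they bear on this. Cells were plated in triplicate, so p-values measure a spread between libraries that may be technical.

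MicroRNAs are short RNAs that guide Argonaute proteins to partly matching sites in mRNAs, usually in the 3' UTR, where they lower mRNA stability and translation. Most of the recognition rests on the seed, bases 2 to 8 of the miRNA, and a matching site loses repression once the miRNA is gone. miR-137 is abundant in brain, where it is studied for its part in neuronal differentiation and synapse function. Beta cells share with neurons a machinery for regulated secretion, including granins and SNARE proteins. DOX is a tetracycline, a class that also inhibits mitochondrial translation.

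The mature strand that the counted seed sites refer to is shown first, with its seed in capitals. RefSeq places it at chr3:118433901-118433923 on the plus strand of GRCm38.p6.
miR-137-3p: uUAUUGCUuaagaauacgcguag
An mRNA site that pairs with the whole seed and has an A opposite base 1 of the miRNA (an 8mer site) reads AGCAATAA. The following 8mer sites lie in the annotated 3' UTR (GENCODE M21, GRCm38) of genes described below. Each is shown with the 15 bases before it, written 5′ to 3′ on the gene's strand, with the 8mer in capitals.
Akt2, chr7:27639410-27639432, plus strand: tatttgtacggtacaAGCAATAA
Rora, chr9:69384970-69384992, plus strand: taccccagaacttagAGCAATAA
Rora, chr9:69385812-69385834, plus strand: cataactgaatgtcaAGCAATAA
Mitf, chr6:98021002-98021024, plus strand: gtttgtaaacaataaAGCAATAA
Ybx1, chr4:119278322-119278344, minus strand: tgaatatgaaattccAGCAATAA
Cse1l, chr2:166946222-166946244, plus strand: ttaaagtctgtaatcAGCAATAA
Pgm2, chr5:64127924-64127946, plus strand: gaacttgattgttaaAGCAATAA
Rcor2, chr19:7275019-7275041, plus strand: cctttccttctttttAGCAATAA
Pappa2, chr1:158712905-158712927, minus strand: tagtcttctactcctAGCAATAA
Ap1s3, chr1:79608370-79608392, minus strand: tggcaacatttatatAGCAATAA
Ap1s3, chr1:79607688-79607710, minus strand: aaccatttatttaaaAGCAATAA
Padi2, chr4:140952541-140952563, plus strand: agagccaaaataaagAGCAATAA
They are examples from the genes described one by one below, either reported as miR-137 targets or among the largest rises of genes with an 8mer. The comparison of site classes rests on all genes with a 3' UTR. A match of letters is a description and does not show that the site is bound.

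The 6 libraries held 17470614 to 21555179 gene counts with 7 d DOX and 22123382 to 24144737 after withdrawal, so every withdrawn library was deeper than every library with 7 d DOX. Over all 24 libraries the range was 15759849 to 24144737. Defining markers of beta cells were present in both groups. The insulin gene Ins2 stood at 8439 to 8850 CPM (counts scaled to library size) with 7 d DOX and at 8681 to 8903 after withdrawal, and the transcription factor gene Pdx1 at 272 to 276 and 281 to 296 CPM. Neither passed the test (log2 differences 0.02 and 0.07). Markers of other cell types were low in both groups. Summed over each list in unadjusted CPM, 14 exocrine and duct markers gave 24.8 to 25.8 with 7 d DOX and 23.6 to 25 after withdrawal, with 5 of the 14 (Prss1, Prss2, Cpa1, Cpb1 and Amy2a5) at 0 counts. The 9 fibroblast markers gave 2.51 to 3.32 and 2.95 to 4.11, with Lum and Pdgfrb at 0. The 9 endothelial markers gave 11.8 to 12.2 and 9.54 to 11.4, with Cldn5 at 0. The 10 leukocyte markers gave 2.72 to 2.97 and 3.38 to 3.89, with 4 of the 10 at 0, and Cd68, the 1 tested member, rose by 0.47 on the log2 scale (SE 0.15) but stood at -0.0716 on the TPM scale.

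The induced locus was read first. No read was counted for Mir137 itself (chr3:118433857-118433929, plus strand), at 0 in all 24 libraries. This gene sits within the long noncoding transcript Gm26871 (ENSMUSG00000097311, chr3:118430324-118530022, plus strand), and how reads shared by both were assigned was not tested. A 0 there therefore does not bound how much of it was made. Gm26871 stood at 126.3, 121 and 120.9 unadjusted CPM in the 3 libraries with 7 d DOX, and at 2.18, 3.48 and 2.07 after withdrawal. The groups lay far apart, and the fitted difference was -5.58 on the log2 scale (SE 0.08, n = 3, edgeR adjusted p 6.1e-36). Without DOX the same line stood at 4.58, 3.90 and 4.58, so the withdrawn libraries lay below the uninduced ones. The means of the 5 groups of the other lines lay between 2.17 and 5.38. The counts do not separate the inserted copy from the endogenous locus (these cannot be told apart), and mature miRNA is not captured by a polyA library.

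**Figure D1:**
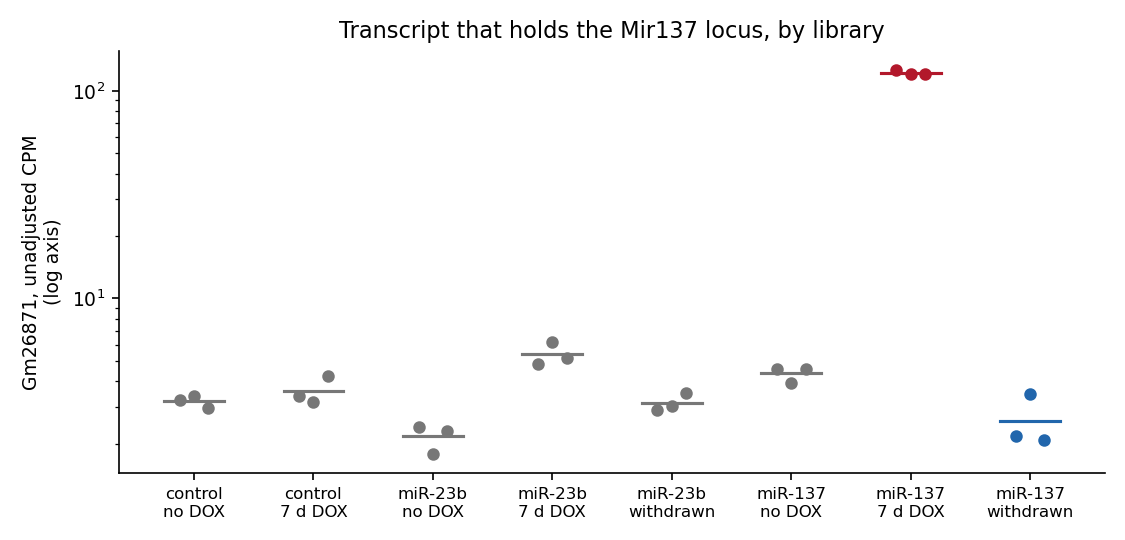
Unadjusted CPM (log axis) of Gm26871, the transcript that holds the Mir137 locus, in each of the 24 libraries. Points are libraries and lines are group means. The 3 libraries of the miR-137 line with 7 d DOX lie between 120.9 and 126.3, and the withdrawn libraries (2.07 to 3.48) lie among those of the other groups.

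Gene expression after withdrawal differed from that with 7 d DOX in many genes and mostly by little. Of 14866 genes tested, 4386 (29.5%) passed edgeR's quasi-likelihood test at a Benjamini-Hochberg adjusted p below 0.05. They divided into 2185 that rose (14.7%) and 2201 that fell (14.8%). On the TPM scale 1434 rose and 2026 fell. The 3 libraries of 1 group lay wholly above or below those of the other in 3047 higher (20.5%) and 3015 lower genes (20.3%). The median size of a called change was 0.212 on the log2 scale, and 3984 of the called genes changed by less than 1.5-fold. The 134 genes over 2-fold were unevenly split, with 24 higher and 110 lower. In a principal component analysis of the 9 libraries of the line, the first component (44.8% of the variance) set the no DOX libraries (-29.2 to -26.3) apart from those with 7 d DOX (15.04 to 15.5) and the withdrawn ones (12.4 to 13.0). On the second component (18.2%) the libraries with 7 d DOX scored 14.8 to 15.3 and the withdrawn ones -17.3 to -14.6, with the no DOX libraries between them at 0.231 to 2.38. The withdrawn cultures thus did not lie near the uninduced ones on the first component, and the cause was not tested. In bulk RNA, fewer cells of a kind and less RNA per cell cannot be told apart.

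With Gm26871 and other predicted or clone names left out, the 12 largest falls at 5 CPM or more included genes of secretion, signalling and stress. Vgf, which encodes a secreted neuropeptide precursor of the granin family, stood at 131, 134 and 131 CPM with 7 d DOX and at 60.4, 65.1 and 60.9 after withdrawal. The groups did not overlap, and the difference was -1.09 (log2, SE 0.05, n = 3, edgeR adjusted p 3.59e-19). Without DOX, Vgf stood at 74.4 to 85.1, so the withdrawn level was also below the uninduced one. The kinase gene Dclk1, known for its part in neuronal migration, stood at 24.5, 22.8 and 21.6 CPM with 7 d DOX and at 10.2, 9.84 and 10.3 after withdrawal (-1.18, SE 0.07), against 8.83 to 9.42 without DOX. Dclk1 fell although its 3' UTR holds an 8mer for miR-137-3p. C1ql3, which encodes a secreted synaptic protein, stood at 26.9, 27.0 and 28.4 CPM and then at 13.4, 13.2 and 11.2 (-1.12, SE 0.07). Its withdrawn libraries overlapped those without DOX (11.9 to 13.9).

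Other large falls took genes below their uninduced level. Ddit4l, a stress-responsive inhibitor of mTOR signalling, stood at 10.6, 8.84 and 9.14 CPM with 7 d DOX and at 3.41, 3.50 and 2.92 after withdrawal (-1.54, SE 0.13), against 9.47 to 11.4 without DOX. Fxyd2, the gamma subunit of the sodium pump, stood at 21.6, 19.6 and 17.5 CPM and then at 9.16, 9.34 and 8.93 (-1.10, SE 0.09), against 25.3 to 28.3 without DOX. For both genes all withdrawn libraries lay below all others of the line. The membrane mucin gene Muc4 (-1.04, SE 0.08), the proteoglycan gene Spock2 (-1.10, SE 0.11), the polycomb-like gene Scml4 (-1.03, SE 0.08) and the potassium channel gene Kcnc2 (-1.02, SE 0.10) did the same. The rest of the 12 largest falls were the receptor gene Gpr179 (-1.29, SE 0.14), the secreted factor gene Fam19a1 (-1.06, SE 0.10) and the ciliary transcription factor gene Foxj1 (-1.06, SE 0.14), whose withdrawn libraries lay above those without DOX. Of the 12, the withdrawn libraries lay below the no DOX ones in 7, above them in 4 and overlapped in 1.

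The 12 largest rises, chosen in the same way, included genes of metabolism, stress and transport. Gpx2, a glutathione peroxidase, stood at 2.11, 1.86 and 1.60 CPM with 7 d DOX and at 6.14, 4.36 and 6.01 after withdrawal (1.56, SE 0.16, n = 3), against 1.00 to 1.37 without DOX. Trib3, a pseudokinase induced by ATF4, stood at 21.0, 20.8 and 19.1 CPM and then at 37.9, 40.2 and 35.1 (0.89, SE 0.07). Its withdrawn level overlapped that without DOX (30.6 to 35.3). Ciart, a repressor of the circadian clock, went from 5.61, 5.07 and 6.17 to 10.1, 11.5 and 11.0 CPM (0.96, SE 0.10). The amino acid transporter gene Slc38a5, among the abundant transcripts, went from 724, 768 and 705 to 1198, 1056 and 1281 CPM (0.69, SE 0.05). Vipr1, a receptor for vasoactive intestinal peptide, went from 9.98, 11.2 and 10.3 to 17.2, 18.1 and 19.4 CPM (0.79, SE 0.07), which overlapped the 16.6 to 18.6 without DOX. The groups with and without the inducer did not overlap for any of these.

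Further rises were those of Tcim, a regulator of Wnt signalling (1.05, SE 0.14), the anthrax toxin receptor gene Antxr1 (0.83, SE 0.10), the mitochondrial adenylate kinase gene Ak4 (0.72, SE 0.10), the uridine phosphorylase gene Upp1 (0.69, SE 0.10) and Fam184b (0.68, SE 0.13). Dab1, the adaptor of reelin signalling, stood at 71.0 to 80.5 CPM without DOX, 23.0 to 24.5 with 7 d DOX and 37.2 to 40.4 after withdrawal (0.68, SE 0.06). It stayed below every uninduced library, the 1 gene of the 12 to do so. The mitochondrial gene mt-Nd6 was listed with the rises (0.92, SE 0.31) on the strength of 1 low library of the 7 d DOX group. It stood at 64.6, 21.2 and 50.7 CPM there and at 105, 74.1 and 74.8 after withdrawal, and without replicate 2 of 7 d DOX the difference was 0.55 and its call was lost (adjusted p 0.215). Without replicate 1 of the withdrawn group it was lost too (0.73, adjusted p 0.119). With all libraries kept, mt-Nd6 was not called in DESeq2 (adjusted p 0.193) or by limma on log2(TPM + 1) (adjusted p 0.154). Of the 12 largest rises, the withdrawn libraries lay above the no DOX ones in 7, overlapped in 4 and lay below in 1.

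**Figure D2:**
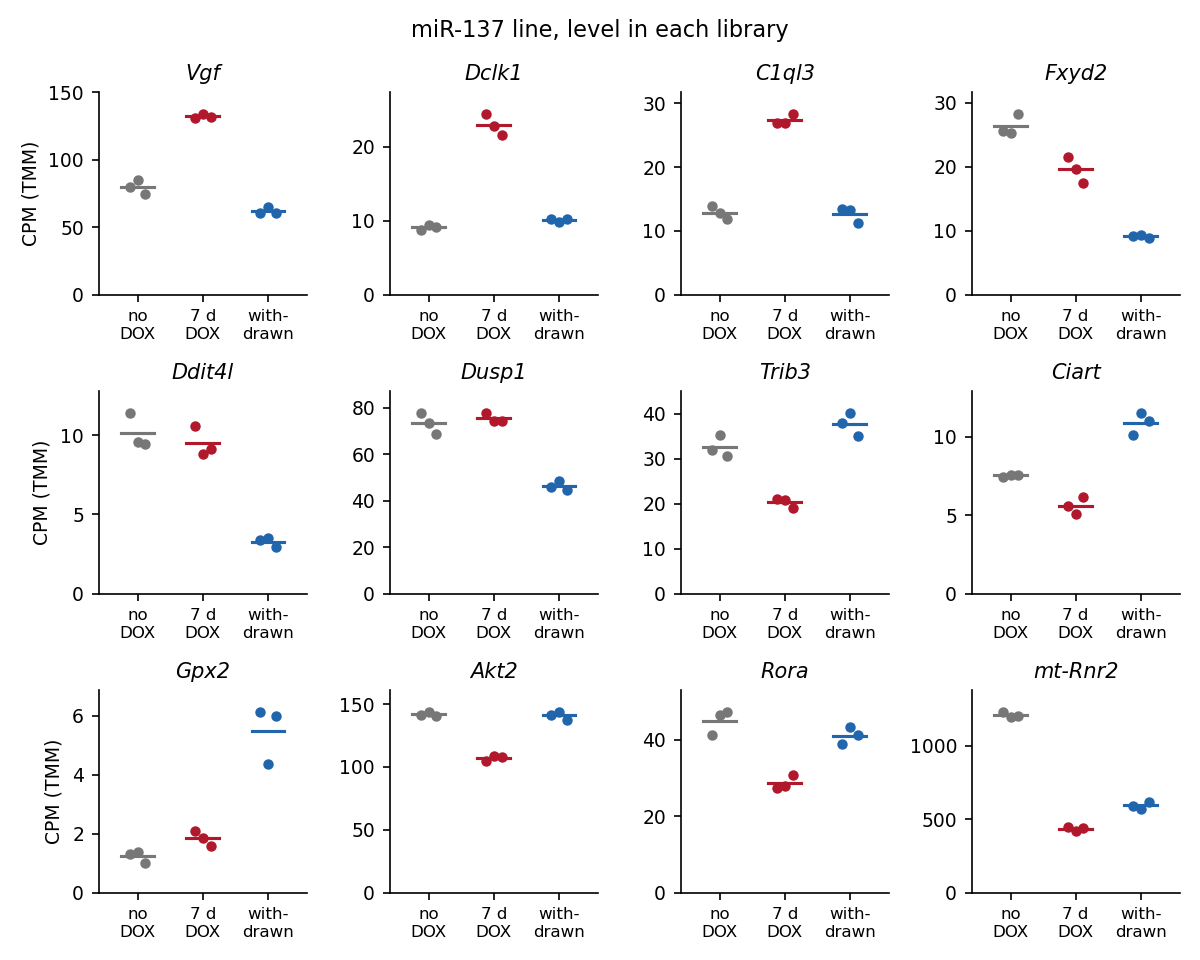
CPM (TMM-scaled, linear axes from 0) of 12 genes in the 9 libraries of the miR-137 line. Points are libraries and lines are means of 3. Vgf, Dclk1 and C1ql3 are highest with 7 d DOX, Akt2, Rora and Trib3 lowest, Fxyd2, Ddit4l and Dusp1 lowest after withdrawal, and Gpx2 and Ciart highest after withdrawal.

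A larger share of the genes with a miR-137-3p seed site was called higher than of those without. Of 12979 tested genes with an annotated 3' UTR, 592 held an 8mer, and of these 208 rose (35.1%) and 57 fell (9.63%). Among the 10948 without any site, 1553 rose (14.2%) and 1854 fell (16.9%), and among all 12979 the shares were 16.1% each way. The median difference was 0.0871 on the log2 scale for 8mer genes, 0.0347 for the 656 with a 7mer-A1 as best site (GCAATAA), 0.0192 for the 783 with a 7mer-m8 (AGCAATA) and -0.0025 with no site. Of the 7mer-A1 genes 158 rose and 76 fell, and of the 7mer-m8 genes 177 rose and 100 fell. These shares are descriptions, with no test between the classes.

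These genes have longer 3' UTRs, with a median of 2473 bases for those with an 8mer and 1037 for those with no site. The 8mer genes also had a higher median level with 7 d DOX, at 41.5 CPM against 32.8 with no site. Genes with an 8mer for other miRNAs are given beside them, not matched for base content or level. For miR-27b-3p (ACTGTGAA, median 3' UTR of 2567 bases) 138 of 855 genes rose (16.1%) and 156 fell (18.2%). For miR-24-3p (CTGAGCCA) 164 of 1160 rose (14.1%) and 190 fell (16.4%). For the other strand of the hairpin, miR-137-5p (ATACCCGA), 6 of 43 rose and 8 fell. In the miR-23b line the plasmid carries other miRNAs, whose levels were not measured here, and the same DOX was withdrawn. There 162 of the 592 genes with a miR-137-3p 8mer rose on withdrawal (27.4%) and 192 fell (32.4%). Among all genes with a 3' UTR the shares in that line were 28.1% and 27.9%. Genes with a 7mer-A1 as best site were 25.5% higher and 36.9% lower there, so the site classes leaned to falls in that line. Over all 14866 genes of that line 26.4% were called higher and 25.8% lower. Of its genes with a miR-27b-3p 8mer, 309 of 855 were higher (36.1%) and 206 lower (24.1%). The shifts were small, with a median of 0.0871 on the log2 scale for the 8mer genes of the miR-137 line.

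**Figure D3:**
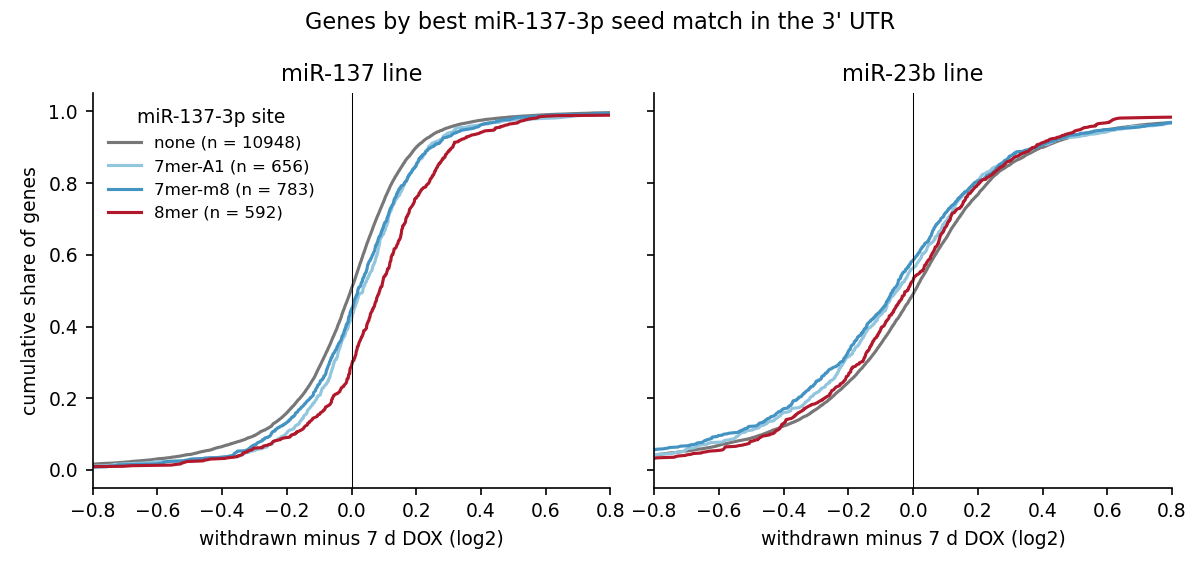
Cumulative share of genes by log2 difference, withdrawn minus 7 d DOX, for genes grouped by their best miR-137-3p seed match, in the miR-137 line (left) and the miR-23b line (right). The axis ends at -0.8 and 0.8, beyond which few genes lie. In the left panel the 8mer curve (592 genes, median 0.0871) lies to the right of the curve for genes with no site, and in the right panel (median -0.0175) it does not.

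Some genes with an 8mer are given here library by library. They were picked because they passed the test, some for the largest rises, so they add no separate support to the comparison of site classes. Akt2, a kinase of insulin signalling reported as a miR-137 target, stood at 105, 108 and 108 CPM with 7 d DOX and at 141, 144 and 138 after withdrawal (0.40, SE 0.03, n = 3, edgeR adjusted p 2.49e-12). The withdrawn libraries overlapped those without DOX (140.5 to 144), and in control cells Akt2 stood at 148 without and 142 with DOX. Rora, a nuclear receptor of the clock whose 3' UTR holds both sites shown above, stood at 27.4, 27.9 and 30.9 CPM and then at 38.9, 43.2 and 41.2 (0.52, SE 0.06), against 41.3 to 47.4 without DOX. Mitf, a transcription factor of melanocytes reported as a miR-137 target, went from 3.40, 2.56 and 2.57 to 4.02, 3.86 and 4.96 CPM (0.59, SE 0.14). Pgm2, a phosphoglucomutase, went from 13.2, 14.8 and 14.0 to 22.5, 20.7 and 19.7 CPM (0.58, SE 0.07). For these 4 genes the withdrawn libraries overlapped the uninduced range and not the range with 7 d DOX.

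Not all genes with an 8mer returned to a level near the uninduced one. Rcor2, a partner of the histone demethylase LSD1, stood at 40.8 to 42.5 CPM without DOX, 43.9 to 47.6 with 7 d DOX and 62.6 to 68.9 after withdrawal (0.55, SE 0.05). Pappa2, a protease that cleaves IGF binding proteins, stood at 46.3 to 49.1, 72.6 to 80.3 and 103 to 115 CPM in the same order (0.50, SE 0.06). Both were highest after withdrawal, and Pappa2 was already higher with DOX than without, as in control cells, where it stood at 77.0 without and 208 with DOX. The clathrin adaptor gene Ap1s3, with 2 sites, rose by 0.58 (SE 0.11) and the arginine deiminase gene Padi2 by 0.51 (SE 0.12), the latter not called on the TPM scale (adjusted p 0.0755).

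Genes reported elsewhere as miR-137 targets were 28 among those tested, and 11 rose and 3 fell, beside 14.7% and 14.8% of all 14866 genes. Their median was 0.107 against 0.0038 over all genes. Besides Akt2, Rora and Mitf, the rises were those of Ybx1, an RNA-binding protein (0.31, SE 0.04), the nuclear export receptor gene Cse1l (0.31, SE 0.03), the mitophagy receptor gene Bnip3l (0.23, SE 0.04), the GTPase gene Cdc42 (0.22, SE 0.03), the transcription factor genes Tcf4 (0.17, SE 0.03) and Sp1 (0.16, SE 0.03), the vesicle fusion ATPase gene Nsf (0.15, SE 0.03) and the polycomb methyltransferase gene Ezh2 (0.10, SE 0.03). Ybx1 stood at 424.5 to 447 CPM with 7 d DOX and 536 to 552 after withdrawal, above the 463.8 to 507 without DOX. The formin gene Fmnl2 (-0.31, SE 0.04), the splicing regulator gene Ptbp2 (-0.28, SE 0.05) and the polycomb cofactor gene Jarid2 (-0.20, SE 0.05) fell, and of these Fmnl2 holds a 7mer and the other 2 no site. Kdm1a, another reported target, stood at 176 to 183 CPM and 173 to 180 (-0.02, not called). In the miR-23b line 5 of the 28 rose and 13 fell on withdrawal, beside 26.4% and 25.8% of all genes there. The call of Ezh2 was lost without replicate 1 or 2 of 7 d DOX or replicate 1 of the withdrawn group (adjusted p 0.0804, 0.0937 and 0.173), and on the TPM scale the calls of Ezh2, Mitf, Sp1 and Jarid2 were lost.

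Many genes of the neuronal and secretory programme fell. Of 29 neuronal and exocytosis genes tested, 20 fell and 3 rose, with a median of -0.217. For this list and those below, the shares over all genes were 14.7% higher and 14.8% lower. Beside Vgf and Dclk1, Elavl4, an RNA-binding protein of neurons, stood at 135, 126 and 132 CPM with 7 d DOX and at 92.9, 88.2 and 95.5 after withdrawal (-0.50, SE 0.04), which overlapped the 93.1 to 98.1 without DOX. Peptide hormone genes went the same way, with 5 of 10 lower (3 in DESeq2) and 1 higher and a median of -0.316. Cck, the cholecystokinin gene, went from 37.6, 41.0 and 39.6 to 22.9, 27.3 and 27.9 CPM (-0.60, SE 0.10), and secretin (Sct) rose from 22.7, 27.3 and 23.9 to 31.6, 30.7 and 27.8 CPM (0.28, SE 0.07). The somatostatin gene Sst fell by 1.48 (SE 0.20) but reached at most 2.52 CPM. In the miR-23b line 22 of the 29 neuronal genes fell and 4 rose on withdrawal, and 6 of the 10 hormone genes fell and 2 rose. Over all genes of that line 25.8% fell and 26.4% rose.

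Genes of beta cell identity and insulin secretion were split, with 6 of 32 higher and 9 lower and a median of -0.0337. The granule membrane protein gene Ptprn, among the abundant members, fell from 1185, 1246 and 1224 to 868, 904 and 895 CPM (-0.46, SE 0.03), still above the 698 to 735 without DOX. Rasgrp1, an activator of RAS, fell by 0.84 (SE 0.09). The cation channel gene Trpm5 rose from 56.3, 54.3 and 56.6 to 71.6, 66.8 and 69.7 CPM (0.32, SE 0.05). Of 20 islet progenitor and dedifferentiation genes 4 rose and 7 fell, with Nkx6-2, a homeobox gene, at 0.41 (SE 0.10, not called on the TPM scale, adjusted p 0.0868) and Id1, an inhibitor of differentiation factors, at -0.37 (SE 0.06).

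Many cell cycle genes rose, each by a small amount. Of 39 mitosis and G2/M genes 29 rose and 0 fell, with a median of 0.158. The spindle checkpoint kinase gene Bub1 stood at 142, 139 and 143 CPM with 7 d DOX and at 180, 173 and 178 after withdrawal (0.32, SE 0.03), above the 149 to 152 without DOX. Mad2l1, of the same checkpoint, rose by 0.28 (SE 0.03) and the survivin gene Birc5 by 0.27 (SE 0.04). Of 36 DNA replication and G1/S genes 21 rose and 0 fell, with a median of 0.117. Mcm10, a replication initiation factor, went from 62.5, 61.9 and 61.6 to 78.5, 77.6 and 79.0 CPM (0.34, SE 0.04). The loading factor gene Cdc6 (0.27, SE 0.04), the replisome gene Gins2 (0.28, SE 0.04) and the polymerase gene Pola1 (0.25, SE 0.04) rose as well. The counts of rises ranged from 24 to 30 and from 16 to 21 over the alternative settings, with 0 falls in each. In the miR-23b line 28 of 39 rose and 0 fell, and 28 of 36 rose and 3 fell, but on the TPM scale these counts were 13 and 9, and 18 and 7. Over all genes of that line 26.4% rose and 25.8% fell, or 14.3% and 37.1% on the TPM scale. In control cells 23 and 20 were higher with DOX (18.5% of all genes were higher there and 19.3% lower).

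Genes of the p53 response and CDK inhibitors did not move as a block, with 3 of 24 higher and 5 lower. The CDK inhibitor gene Cdkn1a fell from 148, 143 and 147 to 116, 122 and 118 CPM (-0.30, SE 0.03), which overlapped the 112 to 117 without DOX. The growth arrest gene Gadd45a rose by 0.40 (SE 0.06) and the apoptosis gene Bbc3 fell by 0.40 (SE 0.09).

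Many stress and protein folding genes rose. Of 36 ATF4 and amino acid supply genes 22 rose and 2 fell, with a median of 0.152. Beside Trib3 these included the glutathione-degrading enzyme gene Chac1, from 26.0, 29.0 and 27.3 to 36.0, 37.5 and 34.5 CPM (0.39, SE 0.06), the lipoprotein receptor gene Vldlr (0.40, SE 0.06) and the stress-induced gene Nupr1 (0.39, SE 0.06). Chac1 stayed below its level without DOX (41.1 to 44.2). Of 21 ER chaperone and unfolded protein response genes 14 rose and 0 fell, with a median of 0.151. The ER chaperone gene Hsp90b1 went from 1282, 1223 and 1232 to 1614, 1399 and 1534 CPM (0.28, SE 0.04) and calreticulin (Calr) from 1359, 1365 and 1288 to 1716, 1504 and 1592 CPM (0.26, SE 0.04). In both genes the withdrawn libraries also lay above those without DOX (1164 to 1201 and 1213 to 1270). Of 18 heat shock genes 10 rose and 1 fell, with the cochaperone gene Chordc1 at 0.39 (SE 0.05) and the mitochondrial chaperone gene Hspd1 at 0.31 (SE 0.04). On withdrawal in the miR-23b line 19 ATF4 genes rose and 6 fell (ER chaperones 10 and 4, heat shock 11 and 3). On the TPM scale these counts were 10 and 10 (4 and 8, 9 and 5). All genes of that line gave 26.4% and 25.8%, or 14.3% and 37.1% on the TPM scale. With DOX in control cells 1 ATF4 gene was higher and 28 lower (ER chaperones 15 and 1, heat shock 3 and 4). All genes there gave 18.5% higher and 19.3% lower.

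Immediate early genes, which neuronal and secretory cells switch on within minutes of stimulation, held falls and no rises. Of 23 tested, 12 fell and 0 rose, with a median of -0.304. The phosphatase gene Dusp1 stood at 77.7, 74.4 and 74.0 CPM with 7 d DOX and at 46.0, 48.3 and 44.5 after withdrawal (-0.70, SE 0.05, edgeR adjusted p 1.3e-13). Without DOX it stood at 68.8 to 77.8, so the withdrawn libraries lay below both other groups. The antiproliferative gene Btg2 went from 93.2, 83.1 and 84.1 to 62.4, 59.9 and 54.4 CPM (-0.56, SE 0.06) and the stress factor gene Atf3 from 9.06, 8.65 and 8.51 to 6.27, 5.52 and 4.92 CPM (-0.65, SE 0.12). Fos fell from 91.9, 86.4 and 82.0 to 69.8, 69.0 and 61.6 CPM (-0.38, SE 0.07), and was not called on the TPM scale (adjusted p 0.104). In control cells 16 of the 23 were lower with DOX than without and 0 higher, beside 19.3% and 18.5% of all genes.

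Genes of glucose and sterol metabolism moved in smaller numbers. Of 29 glycolysis and hypoxia genes 10 rose and 3 fell, with a median of 0.165. The glucose transporter gene Slc2a1 went from 71.1, 63.1 and 77.1 to 98.1, 115 and 99.7 CPM (0.57, SE 0.08), above the 56.3 to 70.6 without DOX. The oxygen sensor genes Egln3 (0.66, SE 0.10) and Egln1 (0.41, SE 0.04) rose too. Of 25 cholesterol synthesis and uptake genes 4 rose (1 without replicate 1 of 7 d DOX) and 3 fell, with a median of 0.0135. This list had 24 of 25 lower with DOX in control cells (19.3% of all genes), and 22 higher and 0 lower on withdrawal in the miR-23b line (26.4% and 25.8% of all genes). Srebf2, the transcription factor that drives sterol synthesis, stood at 301 to 319 CPM without DOX, 247 to 265 with 7 d DOX and 208 to 228 after withdrawal (-0.23, SE 0.04). The withdrawn level of Srebf2 thus lay further from the uninduced level than that with 7 d DOX, and the cause was not tested. Of 14 fatty acid synthesis genes 1 rose and 1 fell.

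Both mitochondrial ribosomal RNAs rose. The small ribosomal RNA mt-Rnr1 was listed at 400.0 to 416 CPM without DOX, 205 to 215 with 7 d DOX and 311 to 323 after withdrawal (0.60, SE 0.04). The large one, mt-Rnr2, was listed at 1196 to 1232, 419.6 to 445 and 573 to 618 CPM (0.45, SE 0.04). Both rose part of the way to the level without DOX, and both also rose on withdrawal in the miR-23b line and were lower with DOX in control cells (403 to 216 and 1200 to 431 CPM). These RNAs carry little polyA, and whether their share of a polyA library follows their level in the cell was not tested. The cytochrome b gene mt-Cytb fell by 0.26 (SE 0.04), and of 9 tested mitochondrially encoded genes 3 rose and 3 fell. Of 48 nuclear genes of the respiratory chain 4 rose and 2 fell, of 35 mitochondrial ribosome and translation genes 9 rose and 0 fell, and of 13 biogenesis regulators 4 rose and 1 fell, with Esrrg at 0.19 (SE 0.05) and Tfam at 0.15 (SE 0.04, not called on the TPM scale, adjusted p 0.0694). Without replicate 3 of 7 d DOX the rises among these nuclear lists dropped to 0 for the respiratory chain and to 3 for the mitochondrial ribosome.

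The remaining lists moved both ways or had few calls. Of 31 interferon and MHC class I genes 0 rose and 5 fell (3 without replicate 2 of 7 d DOX). B2m, the light chain of MHC class I, went from 43.7, 42.5 and 44.8 to 31.2, 31.8 and 33.1 CPM (-0.44, SE 0.05), further below the 65.5 to 68.6 without DOX. Like Dclk1, B2m fell although its 3' UTR holds an 8mer for miR-137-3p. Of 18 circadian clock genes 6 rose and 2 fell, with Hlf at 0.45 (SE 0.07) and Bhlhe40 at 0.48 (SE 0.08, not called on the TPM scale, adjusted p 0.0822) beside Ciart and Rora. Of 28 TGF-beta, activin and BMP genes 4 rose and 7 fell, with the ubiquitin ligase gene Smurf2 at 0.28 (SE 0.04). Of 22 glutathione and NRF2 genes 6 rose and 7 fell, with heme oxygenase (Hmox1) at 0.45 (SE 0.07) and Gstm1 at -0.33 (SE 0.03). Of 15 NOTCH pathway genes 4 rose and 1 fell, with Notch2 going from 6.48, 6.88 and 8.62 to 10.8, 11.1 and 10.9 CPM (0.59, SE 0.09). Without replicate 1 of 7 d DOX 1 of the NOTCH genes rose in place of 4. Of 13 genes of miRNA processing and silencing 2 rose and 2 fell, with all members between -0.14 and 0.13. Epithelial (5) and mesenchymal (9) genes had 1 rise and 2 falls each (1 fall each without replicate 1 of 7 d DOX), among them vimentin (Vim), at no more than 2.16 CPM (-1.23, SE 0.21).

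**Figure D4:**
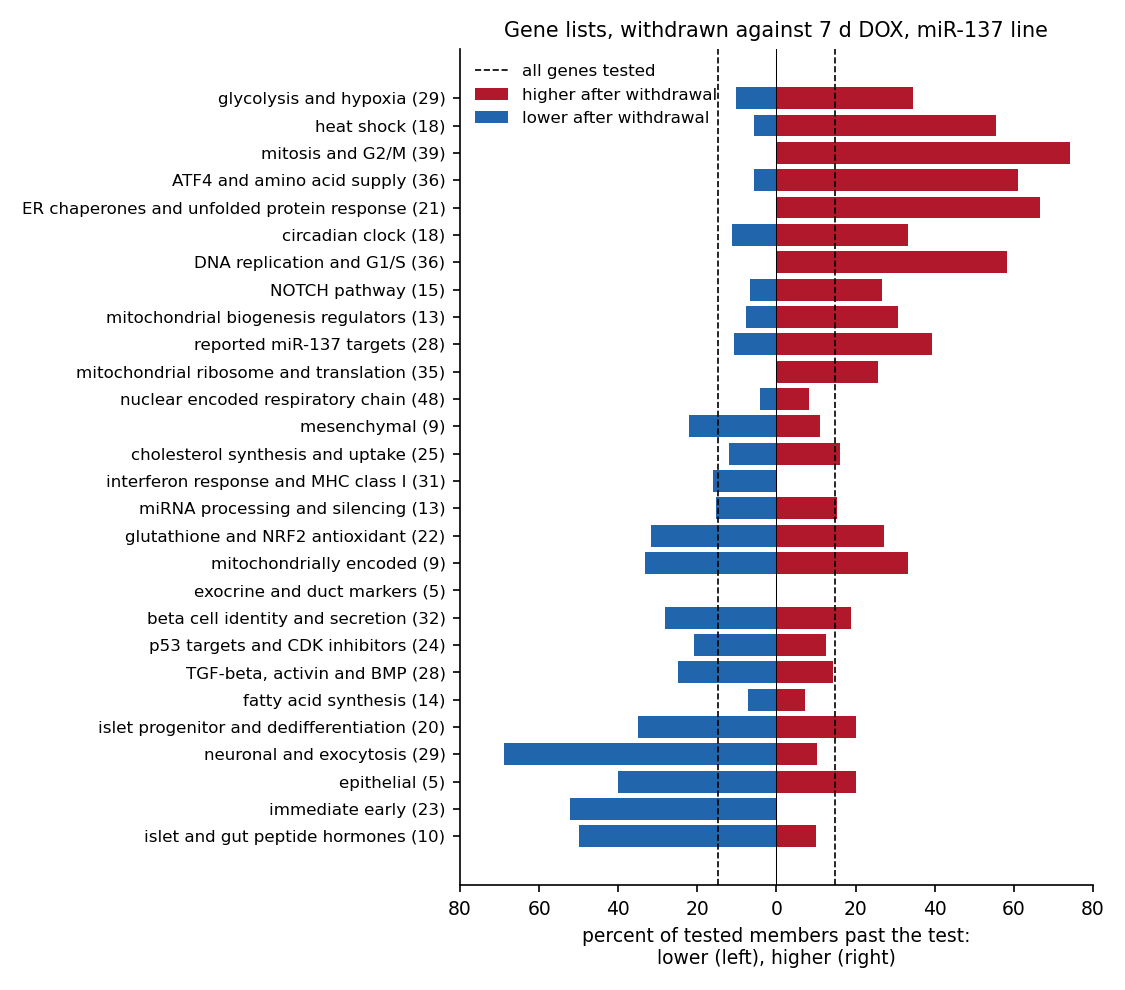
Share of tested members (number in brackets) of each gene list with at least 5 tested members that passed edgeR's test after withdrawal, higher to the right and lower to the left. Lists are ordered by median log2 difference and dashed lines mark the shares among all 14866 genes (14.7% and 14.8%). Mitosis, ER chaperone, ATF4 and replication genes reach furthest to the right, and neuronal, immediate early and hormone genes furthest to the left.

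The genes that respond to DOX in the control line, whose libraries are not part of this comparison, were followed on withdrawal. In control cells 5624 of 14866 genes (37.8%) changed with 7 d of DOX, 2753 higher and 2871 lower. Of the 2753 that DOX raised there, 623 rose on withdrawal in the miR-137 line (22.6%) and 496 fell (18.0%), with a median of 0.0195. Of the 2871 that DOX lowered, 14.8% rose and 21.8% fell, with a median of -0.0230. Of the 218 that DOX raised over 2-fold in control cells, 12 rose on withdrawal (5.5%) and 21 fell (9.63%), with a median of -0.0706. Of the 199 lowered over 2-fold there, 16 rose (8.04%) and 32 fell (16.1%), with a median of -0.124. Over all genes 14.7% rose on withdrawal and 14.8% fell. The part of DOX loss in the withdrawal response was not tested. Of the 12 largest falls on withdrawal, 5 were higher with DOX in control cells, 4 lower and 3 not called. Vgf was of the last kind, at 85.8 CPM without and 84.6 with DOX in control cells, and so was C1ql3 (13.7 and 14.1).

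The miR-23b line went through the same schedule, and the difference between the 2 withdrawal responses was tested in the same model. It passed in 5109 of 14866 genes (34.4%), 2479 with a higher response in the miR-137 line (16.7%) and 2630 with a lower one (17.7%). Calls were thus 48.5% higher, but 71.0% higher on the TPM scale, where the median gene of the miR-23b line shifted from 0.0018 to -0.0785 (-0.105 with the smaller pseudocount). The miR-23b line's own withdrawal called 7760 genes (52.2%), of which 50.6% were higher, or 27.8% on the TPM scale. Of the 2185 genes that rose in the miR-137 line, 1203 also rose in the miR-23b line (55.1%, and 30.6% of its 3927 rises) and 220 fell. Of the 2201 that fell, 1194 also fell there (54.2%, and 31.1% of its 3833 falls) and 336 rose. Across all genes the log2 differences of the 2 lines had a Pearson r of 0.268, as a description over genes, which are not independent replicates. All 12 of the largest falls in the miR-137 line were called in the miR-23b line as well, 10 of them lower.

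Several genes with large differences between the lines fell in the miR-137 line and rose in the miR-23b line. The galectin gene Lgals2 fell in the miR-137 line from 31.3, 33.5 and 30.8 to 19.7, 21.0 and 23.6 CPM (-0.57, SE 0.06) and rose in the miR-23b line from 8.81 ± 0.651 to 27.2 ± 0.985 (difference -2.20, SE 0.10, n = 3). Fos (-2.12, SE 0.12), the clarin gene Clrn3 (-2.12, SE 0.20), Fxyd2 (-2.05, SE 0.14) and the myosin gene Myo7b (-1.87, SE 0.06) likewise fell in 1 line and rose in the other. Fxyd2 ended at 9.14 ± 0.209 CPM in the withdrawn miR-137 line and at 11.7 ± 0.992 in the withdrawn miR-23b line, having started from 19.6 ± 2.04 and 6.21 ± 1.03. The opposite signs thus went with different levels on DOX, and the 2 withdrawn levels of Lgals2 and Fos were also nearer each other than those with DOX.

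Other named genes rose in the miR-137 line and fell in the miR-23b line. Stanniocalcin (Stc1) rose from 28.2, 25.02 and 27.8 to 40.3, 40.9 and 40.6 CPM in the miR-137 line (0.59, SE 0.06) and fell in the miR-23b line from 49.7 ± 2.06 to 28.5 ± 1.39 (difference 1.39, SE 0.08). Sct (1.14, SE 0.09), the irisin precursor gene Fndc5 (1.47, SE 0.11), the adhesion gene Chl1 (1.05, SE 0.07) and Lrrn1 (1.15, SE 0.09) did the same. Vwde differed by 2.04 (SE 0.21), but its own rise (0.52, SE 0.17) was lost without replicate 1 of 7 d DOX (0.35, adjusted p 0.152) or replicate 3 of the withdrawn group (0.48, adjusted p 0.0599). By list, cholesterol genes had 21 of 25 with a lower response and 0 higher in the miR-137 line, glycolysis genes 20 of 29 lower and 1 higher, and immediate early genes 13 of 23 lower and 1 higher. Reported miR-137 targets had 15 of 28 higher and 1 lower, with Akt2 at 0.34 (SE 0.05), Rora at 0.44 (SE 0.08) and Tcf4 at 0.46 (SE 0.05). On the TPM scale these 4 counts were 18 lower and 0 higher, 18 and 3, 12 and 1, and, for the targets, 17 higher and 0 lower. Beside these, 16.7% of all genes had a higher response and 17.7% a lower one, or 24.3% and 9.90% on the TPM scale. In the miR-23b line itself 22 of the 25 cholesterol genes rose and 0 fell (median 0.484, against 0.0135 in the miR-137 line). Of the 29 glycolysis genes 24 rose there and 1 fell (0.723 against 0.165). Of the 23 immediate early genes 11 rose there and 4 fell (0.199 against -0.304). The shares over all genes of that line were 26.4% higher and 25.8% lower.

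**Figure D5:**
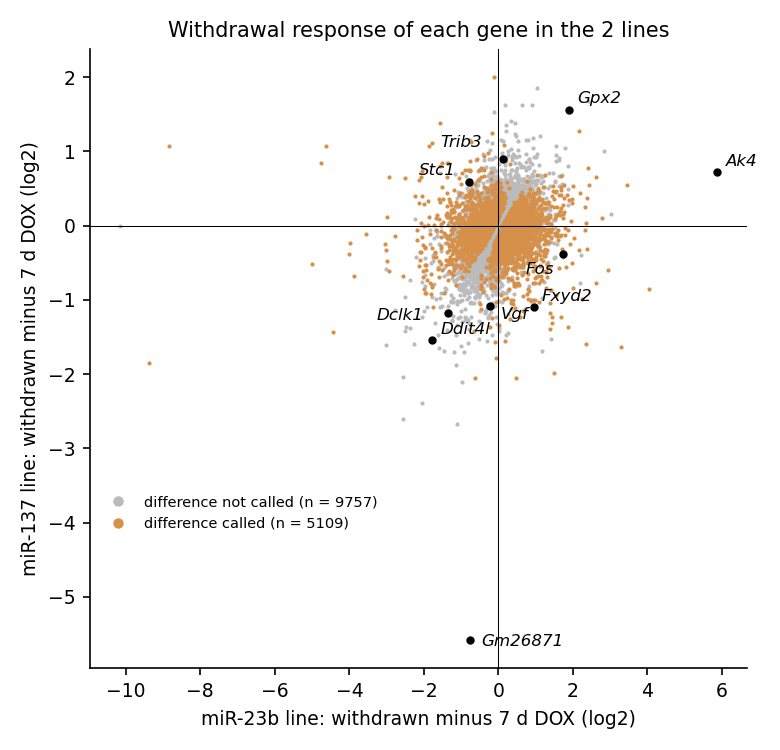
Log2 difference, withdrawn minus 7 d DOX, of 14866 genes in the miR-23b line (horizontal) and the miR-137 line (vertical), with orange points for the 5109 genes whose difference between lines passed the test. Gm26871 lies lowest, at -5.58, Ddit4l and Dclk1 fall in both lines, and Fxyd2 falls in the miR-137 line and rises in the miR-23b line. Ak4 lies furthest to the right, from a level of 0.322 CPM in DOX-treated miR-23b cells.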

How the data were processed

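Polyadenylated RNA of 24 βTC3 cultures was sequenced with a stranded mRNA kit, per the labels' protocols. The deposited gene counts are raw, and the deposited TPM values (transcript abundance scaled per length and library) are the authors' normalized table. The submitters' processing notes list STAR 2.4.0g, RSEM 1.2.19, featureCounts, HTSeq 0.6.1 and cutadapt 1.3, with the mouse build GRCm38, and do not say which made the counts. The sources used here do not state whether counting used strand. Reads with no feature made up 9.62% to 12.06% of each library and reads without a unique place 25.35% to 27.71%, and both were left out. Among the TPM values, 12 genes with more than 1000 counts stand at 0.

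Counts were fitted with edgeR 4.0.16 (R 4.3.3) over all 24 libraries with 8 group means, TMM scaling, the filterByExpr filter (14866 genes) and quasi-likelihood F tests, adjusted by Benjamini-Hochberg with a threshold of 0.05. Values in CPM use TMM-scaled library sizes, except where called unadjusted. SE is the log2 difference divided by the square root of F. The withdrawal of the miR-23b line was fitted as a component of the difference between lines and was added to the planned tests. Counts were also simulated for this comparison over 14866 genes, with 200 of them changed, against 4386 called in the data. They were drawn independently for each library at the fitted dispersions. In that setting 70% of genes changed 1.25-fold and 96% of those changed 1.5-fold were recovered, and 3.72% of calls were unchanged genes. The chi-square per degree of freedom between libraries of a group was 1.74 to 3.54, so none was taken as a duplicate.

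Seed matches were searched in the longest annotated 3' UTR of complete protein-coding transcripts (GENCODE M21). The mature miRNAs come from RefSeq, which matched the miRNAs shown. Text names the Mir137 locus, and the 12 largest called rises and 12 largest called falls at 5 CPM or more whose libraries do not overlap between groups. Clone, pseudogene and predicted gene names, Gm26871 among them, were left out of those rankings. Up to 6 genes per direction for the difference between lines were named with the same filter on names. The rule also names up to 4 called genes of each of 31 lists, every called reported target and up to 6 genes with an 8mer. A few genes that this rule names are not reported here. Members and lists were chosen with earlier results of these data known. Alternatives were DESeq2 1.42.0, limma 3.58.1 on log2(TPM + 1) and log2(TPM + 0.1), other scaling, no filter, the compared groups alone, the replicate number as a block, and leaving out each library.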

Additional observations from a re-analysis of the deposited data

Results flagged for a closer look

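The withdrawal response differed between the miR-137 and miR-23b lines, by the interaction test in edgeR, in 5109 of 14866 genes. Values are the log2 response of the miR-137 line minus that of the miR-23b line.

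Of all 28 tested reported miR-137 targets, 15 had a higher response and 1 a lower one, beside 16.7% and 17.7% of all genes. Only those that also passed the main test are named here. Higher responses were those of Mitf (0.61), Tcf4 (0.46), Rora (0.44), Akt2 (0.34), Ezh2 (0.33), Nsf (0.29), Ptbp2 (0.23) and Ybx1 (0.23). Jarid2 had a lower one (-0.20). Ptbp2 fell in both lines, by less in the miR-137 line. Of the named genes with an 8mer, Pappa2 (0.62) and Pgm2 (0.55) were higher and Padi2 (-0.69) was lower.

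Of the other named genes, Vwde (2.04), Fndc5 (1.47), Stc1 (1.39), Lrrn1 (1.15), Sct (1.14), Chl1 (1.05), Trib3 (0.78), Spock2 (0.66) and Antxr1 (0.51) had a higher response. The lower responses were those of Ak4 (-5.16), Lgals2 (-2.20), Clrn3 (-2.12), Fos (-2.12), Fxyd2 (-2.05), Myo7b (-1.87), Muc4 (-1.38), Vgf (-0.86), C1ql3 (-0.64), Slc38a5 (-0.57), Foxj1 (-0.56) and Dab1 (-0.36). The value of Ak4 rests on a level of 0.322 CPM in DOX-treated miR-23b cells.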

How the results depend on the processing

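The count of genes changed on withdrawal in the miR-137 line was 4386, and 4360 with DESeq2 size factors, 4016 with no filter, 4399 with the compared groups alone, 3701 in DESeq2 and 3460 on log2(TPM + 1). Leaving out 1 library gave 3509 to 4258 (1653 to 2055 higher, 1856 to 2203 lower), and for the difference between lines 4565 to 4871. With the replicate block the count was 4432 (2189 higher, 2243 lower). Withdrawn and 7 d DOX libraries with the same number did not deviate together (correlations 0.0740, 0.00561 and -0.00358), so the numbers were not taken to pair the cultures.

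On the TPM scale the rises in the miR-137 line numbered 1434 (pseudocount 1) and 1436 (0.1), the lower responses in the difference between lines 1472 and 1466, and the rises of the miR-23b line 2125 and 2155. The cause was not tested. There Cd68 (-0.0716 and -0.102), Tfb2m (0.0131 and 0.0135) and the differences between lines of Padi2 (0.00573) and Hspe1 (0.0444 and 0.0455) changed sign. Of 146 named genes, 105 were called the same way under every alternative run.

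Depth limits genes of a few CPM. With no withdrawn control culture, loss of miR-137, loss of DOX and culture time cannot be told apart.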
